A study of Mus musculus with 6 samples.

Results

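The genes described here carry out peptide loading onto MHC class I, the protein that shows pieces of the cell's own proteins to CD8 T cells and natural killer (NK) cells. They are 10 genes of the 26012 in the deposited table, taken by name: the heavy chains H2-K1 and H2-D1, the light chain B2m, the peptide loading genes Tap1, Tap2 and Tapbp, the immunoproteasome subunits Psmb8, Psmb9 and Psmb10, and the transactivator Nlrc5. All 10 were among the 21126 genes tested. RNA was sequenced from ventricular tissue of 6 male C57BL/6 mice that were 8 weeks old when the left anterior descending coronary artery was ligated to cause myocardial infarction (MI). During the operation 3 hearts received 10 μg of control mimic and 3 received 10 μg of miR-19a/19b mimic by injection into the heart, and tissue was taken on day 4. All hearts had MI and an injection, so no uninjured heart enters the comparison. The question was how the class I genes differed between infarcted hearts given the miRNA and those given the control.

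Peptides for class I are cut from proteins by the proteasome. Interferon replaces its catalytic subunits with Psmb8, Psmb9 and Psmb10, which form the immunoproteasome. Tap1 and Tap2 pump the peptides into the endoplasmic reticulum, where tapasin (Tapbp) helps an empty heavy chain paired with B2m to select a peptide that binds well. Nlrc5 is drawn to class I promoters by DNA-bound factors and raises transcription there. In the heart, endothelial cells and leukocytes carry much class I and resting cardiomyocytes little.

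The injected miRNAs are shown to make plain what a direct match would look like. These are the mature sequences in RefSeq (GRCm38.p6), 5′ to 3′, with the seed (bases 2 to 8) in capitals. For each miRNA only 1 listed locus was taken, and both of these lie on chromosome 14. A mimic is a synthetic duplex made to act as the mature miRNA.
miR-19a-3p: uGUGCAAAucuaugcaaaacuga
miR-19b-3p: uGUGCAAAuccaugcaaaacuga
The 2 miRNAs have the same seed and differ at 1 of 23 bases, U11C, counted from 1 at the 5′ end of miR-19a-3p. A 7-base match to the seed, TTTGCAC or its neighbour TTGCACA, was found in the longest annotated 3′ UTR of 0 of the 10 genes. Of the 15867 tested genes with an annotated 3′ UTR, 19.3% held such a match. The absence of these letters says nothing of sites of other kinds.

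The values are normalized counts, the reads on a gene divided by a size factor of the library, and fold changes are from limma on log2(normalized count + 1). Between 19398196 and 23645308 reads per heart lay on genes. The lowest count of the 10 genes in any heart, that of Nlrc5, was 354 reads. How much of the spread between hearts was counting error was not measured. The cardiomyocyte gene Myh6 had between 98566 and 342545 normalized counts in the 6 hearts. The library of miR-19a/19b mimic replicate 1 stood apart: a list of 14 skeletal muscle markers summed to 3543 in it and to between 37.1 and 76.1 in the other 5 libraries. Cardiomyocyte markers were lowest in miR-19a/19b mimic replicate 3, with a sum of 340751 against between 561994 and 990389 in the other hearts. The counts and fold changes of the 10 genes are therefore also given without each of these libraries.

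All 10 genes had lower mean levels in miR-19a/19b mimic hearts, with log2 fold changes between -0.11 (Psmb10) and -0.48 (Nlrc5). Their median was -0.36, where that of all genes tested was 0.0041. In limma 0 of the 10 passed an adjusted p-value of 0.05, and so did 0.0% of all genes, the smallest adjusted p-value of the 10 being 0.947, for Tap1. At an unadjusted p-value under 0.05, 5 of the 10 were lower (H2-K1, B2m, Tap1, Psmb9 and Nlrc5), where 2.63% of all genes tested were lower and 1.39% higher. Every control mimic heart lay above every miR-19a/19b mimic heart for 6 of the 10, these 5 and H2-D1. Such a separation was seen downwards in 5.3% and upwards in 3.9% of all genes tested. Of the 7341 genes averaging 500 normalized counts or more, which all 10 genes reached, 5.2% were separated downwards and 2.44% were lower at the unadjusted threshold. Without miR-19a/19b mimic replicate 1, Tap1 was the 1 gene of the 10 lower at the unadjusted threshold (2.47% of all genes), and the median of the 10 was -0.28. Without miR-19a/19b mimic replicate 3, 8 of the 10 were lower at that threshold (6.12% of all genes) and the median was -0.41. In that setting 2 of them, Tap1 and Nlrc5, passed an adjusted p-value of 0.05, as 0.729% of all genes did downwards. The tissue is a mixture of cells, so fewer cells of a type that carries class I and less RNA in each cell cannot be told apart.

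**Figure D1:**
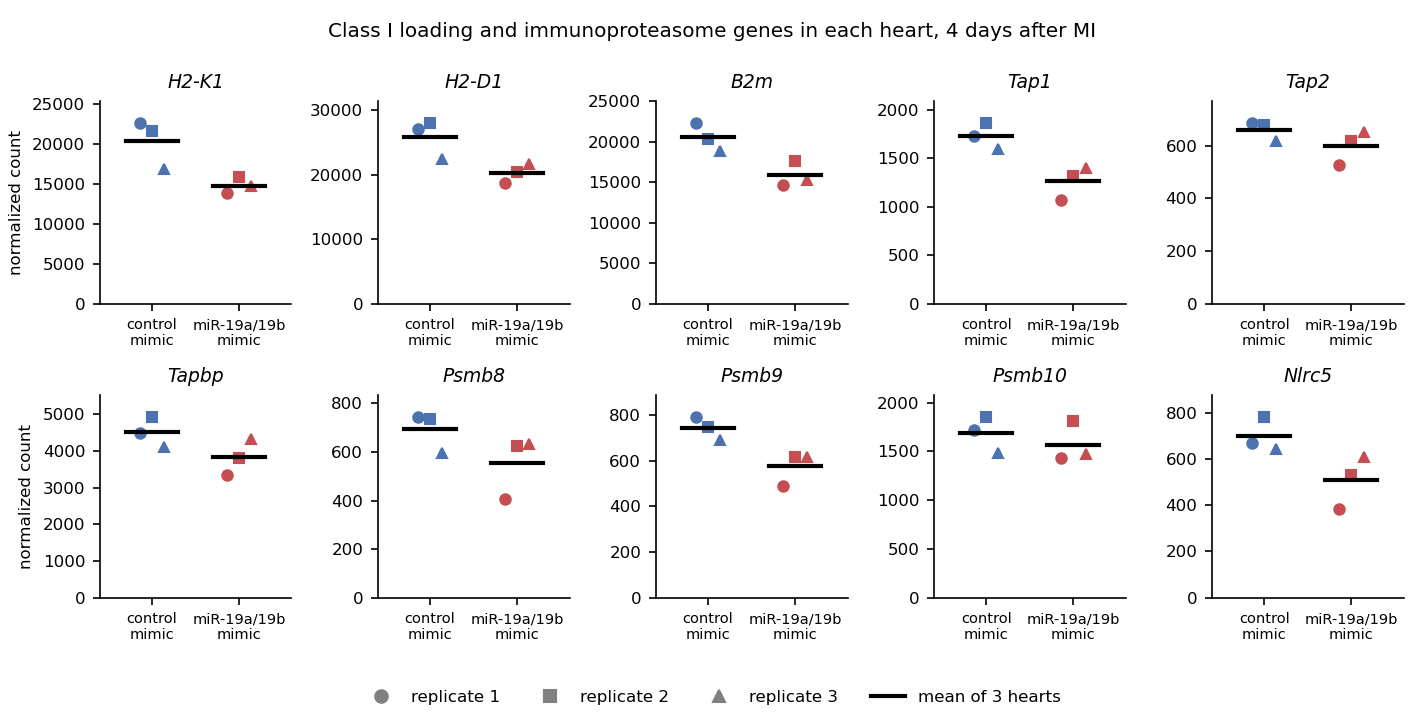
Normalized counts (vertical axes, each from 0) of the 10 genes in the 3 control mimic hearts (blue) and the 3 miR-19a/19b mimic hearts (red), with the group mean as a black bar and the replicate number as the symbol. Red and blue points are separated for H2-K1, H2-D1, B2m, Tap1, Psmb9 and Nlrc5, and the lowest point of every panel is miR-19a/19b mimic replicate 1.

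H2-K1 (ENSMUSG00000061232, chromosome 17, 33996017 to 34000333, minus strand) encodes the classical heavy chain K. It had 22636, 21620 and 16781 normalized counts in control mimic replicates 1, 2 and 3. In the miR-19a/19b mimic group the same replicate numbers had 13776, 15787 and 14667. Its means were 20346 ± 3129 and 14743 ± 1008 (SD, n = 3). The groups did not overlap, although control replicate 3 lay only 993 normalized counts above the highest miR-19a/19b mimic heart. Limma gave a log2 fold change of -0.45 (standard error 0.16), with an unadjusted p = 0.0222. It was -0.41 without miR-19a/19b mimic replicate 1 and -0.45 without replicate 3 of that group.

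H2-D1 (ENSMUSG00000073411, chromosome 17, 35262730 to 35267499, plus strand) encodes the other classical heavy chain of this strain. Its normalized counts were 26980, 28058 and 22444 in control mimic hearts against 18689, 20454 and 21658 in miR-19a/19b mimic hearts. The groups did not overlap, with a gap of 786 between the nearest hearts. The log2 fold change was -0.35 (standard error 0.16), with an unadjusted p = 0.065. Without miR-19a/19b mimic replicate 1 it was -0.29 and without replicate 3 of that group -0.39. A stretch of 280 bases of its transcripts is 96.4% identical to H2-Q7, so reads there can be split between both genes.

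B2m (ENSMUSG00000060802, chromosome 2, 122147686 to 122153083, plus strand) encodes β2-microglobulin, the light chain that every class I heavy chain needs to reach the cell surface. Control mimic hearts had 22342, 20309 and 18839 normalized counts, and miR-19a/19b mimic hearts had 14609, 17648 and 15295. No miR-19a/19b mimic heart reached the lowest control. Here the log2 fold change was -0.37 (standard error 0.15), with an unadjusted p = 0.0377, and it was -0.32 without miR-19a/19b mimic replicate 1 and -0.35 without replicate 3 of that group. Patl2 lies on the opposite strand over the whole of B2m, and whether reads were counted by strand is not given in the sources used here.

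The ratios between heavy chains and light chain overlapped between the groups. H2-K1 over B2m was 1.01, 1.06 and 0.891 in control mimic hearts and 0.943, 0.895 and 0.959 in miR-19a/19b mimic hearts. H2-K1 over H2-D1 lay between 0.748 and 0.839 in the first group and between 0.677 and 0.772 in the second, and H2-D1 over B2m between 1.19 and 1.38 and between 1.16 and 1.42. All 3 ratios were chosen after the values were seen and are given as a description.

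These 3 genes also share a promoter arrangement, and their promoters are printed to show it. In class I promoters a box with the letters TGACG, bound by CREB and ATF factors, stands a set distance before an inverted CCAAT box, ATTGG, bound by NF-Y, and Nlrc5 works through the complex formed there. RefSeq windows (GRCm38.p6, from 250 bases before the start site to 50 after it) are given 5′ to 3′ on the gene's strand. Capitals mark TGACG with ATTGG after a gap of 20 bases, the core motif of interferon regulatory factors (AANNGAAA) and a form of the NF-κB motif (GGGNNTTCC), each searched on both strands and none overlapping here.
H2-K1, chr17:34000298-34000597, minus strand: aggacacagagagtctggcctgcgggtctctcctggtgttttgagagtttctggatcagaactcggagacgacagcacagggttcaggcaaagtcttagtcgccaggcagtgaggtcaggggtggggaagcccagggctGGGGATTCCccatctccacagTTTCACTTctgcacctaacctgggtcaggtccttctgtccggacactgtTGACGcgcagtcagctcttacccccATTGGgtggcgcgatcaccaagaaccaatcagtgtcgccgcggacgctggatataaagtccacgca
H2-D1, chr17:35262844-35263143, plus strand: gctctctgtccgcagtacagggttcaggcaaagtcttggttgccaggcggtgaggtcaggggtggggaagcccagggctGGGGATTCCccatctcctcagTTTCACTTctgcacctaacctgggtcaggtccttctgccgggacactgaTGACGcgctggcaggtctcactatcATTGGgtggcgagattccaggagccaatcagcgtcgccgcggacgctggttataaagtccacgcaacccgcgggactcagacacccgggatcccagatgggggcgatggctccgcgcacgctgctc
B2m, chr2:122147437-122147736, plus strand: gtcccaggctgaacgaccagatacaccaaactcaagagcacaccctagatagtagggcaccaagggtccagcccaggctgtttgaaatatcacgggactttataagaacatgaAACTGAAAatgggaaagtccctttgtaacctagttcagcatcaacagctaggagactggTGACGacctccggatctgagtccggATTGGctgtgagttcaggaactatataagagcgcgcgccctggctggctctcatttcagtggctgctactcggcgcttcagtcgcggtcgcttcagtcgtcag
The arrangement began 101 bases before the listed start site in H2-D1 and 78 in B2m. For H2-K1 RefSeq lists 2 start sites, and it began 41 bases before that of the window printed and 55 before the other. It was present in 3 of the 8 genes with a window (Tap2 and Nlrc5 had none). It stood in 31 (0.0944%) of 32851 windows of all genes searched on both strands, the windows of these 3 genes included. Only a gap of 20 bases, the spacing in these 3 genes, was searched, so the share is a description and no test. AANNGAAA also stood in these 3 windows and in none of the other 5, but 23.9% of all windows held it. GGGNNTTCC stood in H2-K1 and H2-D1 and in 5.82% of all windows. H2-K1 and H2-D1 windows were 73.3% identical over 240 bases once aligned on this arrangement. Of 20 further tested genes with the arrangement, 0 were lower and 1, Slc8a3 with few reads, was higher at an unadjusted p-value under 0.05. Of all genes tested, 2.63% were lower. The median log2 fold change of the 20 was 0.0098. They include another class I heavy chain, H2-M3, at -0.23 (standard error 0.15). Whether the arrangement bears on the differences was not tested. A match of letters is a description and not a bound site.

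Tap1 (ENSMUSG00000037321, chromosome 17, 34187553 to 34197225, plus strand), the first chain of the peptide transporter, had the smallest p-value of the 10 genes. Control mimic hearts had 1733, 1871 and 1601 normalized counts and miR-19a/19b mimic hearts 1072, 1321 and 1402. The groups were 199 apart at their nearest hearts. On the log2 scale the fold change was -0.46 (standard error 0.13), with an unadjusted p = 0.00513 and an adjusted p = 0.947 from limma. It was -0.35 without miR-19a/19b mimic replicate 1 and -0.54 without replicate 3 of that group.

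Tap2 (ENSMUSG00000024339, chromosome 17, 34203527 to 34216321, plus strand) encodes the second chain of the same transporter. It had 689, 677 and 618 normalized counts in control mimic hearts and 527, 618 and 651 in miR-19a/19b mimic hearts. Replicate 3 of the miR-19a/19b mimic group lay above replicate 3 of the controls, so the groups overlapped. Limma gave a log2 fold change of -0.15 (95% interval -0.41 to 0.11), with an unadjusted p = 0.228. It was -0.059 without miR-19a/19b mimic replicate 1 and -0.21 without replicate 3 of that group. Tap1 over Tap2 was 2.52, 2.76 and 2.59 in control mimic hearts and 2.03, 2.14 and 2.15 in miR-19a/19b mimic hearts. The hearts did not overlap in this ratio, which was chosen after the values were seen and is given as a description.

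Tapbp (ENSMUSG00000024308, chromosome 17, 33915899 to 33929288, plus strand), tapasin, had 4485, 4943 and 4112 normalized counts in control mimic hearts against 3354, 3817 and 4320 in miR-19a/19b mimic hearts. The highest miR-19a/19b mimic heart exceeded the lowest control. Its log2 fold change was -0.24 (95% interval -0.53 to 0.05), with an unadjusted p = 0.0966. It came to -0.15 without miR-19a/19b mimic replicate 1 and to -0.33 without replicate 3 of that group. Zbtb22 overlaps 3422 bases of Tapbp on the same strand in the annotation, so reads there could belong to either gene.

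Psmb9, Tap1, Psmb8 and Tap2 lie side by side within 34334 bases of chromosome 17 (34181988 to 34216321), in the class II region of the MHC. Tap1 and Psmb9 are read in opposite directions from start sites 226 bases apart, and their promoter windows share 275 bases. That shared stretch held TGACG and CCAAT, which stood in 20.8% and 37.4% of all windows on either strand, but not in the class I arrangement. Psmb9 over Tap1 lay between 0.399 and 0.457 in control mimic hearts and between 0.440 and 0.467 in miR-19a/19b mimic hearts, which overlapped. The annotated genes overlap by 212 bases on opposite strands.

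Psmb9 (ENSMUSG00000096727, chromosome 17, 34181988 to 34187764, minus strand), the immunoproteasome subunit β1i, had 792, 747 and 689 normalized counts in control mimic hearts and 490, 617 and 617 in miR-19a/19b mimic hearts. All 3 controls lay above all 3 miR-19a/19b mimic hearts. Its log2 fold change of -0.38 (standard error 0.12) came with an unadjusted p = 0.0142, and was -0.27 without miR-19a/19b mimic replicate 1 and -0.43 without replicate 3 of that group.

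Psmb8 (ENSMUSG00000024338, chromosome 17, 34197721 to 34201454, plus strand) encodes β5i. It had 746, 738 and 597 normalized counts in control mimic hearts and 405, 625 and 634 in miR-19a/19b mimic hearts. Replicates 2 and 3 of the miR-19a/19b mimic group lay above control replicate 3, and the low value came from replicate 1. The log2 fold change was -0.35 (95% interval -0.76 to 0.07) with an unadjusted p = 0.0928, and it was -0.13 without that replicate and -0.46 without replicate 3 of that group. Gm20496 overlaps Psmb8 and Tap2 on the opposite strand.

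Psmb10 (ENSMUSG00000031897, chromosome 8, 105935728 to 105938392, minus strand), β2i, lies outside the MHC. Its normalized counts of 1722, 1856 and 1479 in control mimic hearts and 1427, 1807 and 1470 in miR-19a/19b mimic hearts overlapped almost completely. The log2 fold change was -0.11 (95% interval -0.40 to 0.19), with an unadjusted p = 0.436. With each heart left out it ran from -0.21 (without miR-19a/19b mimic replicate 2) to -0.034 (without control mimic replicate 2), and it was -0.042 without miR-19a/19b mimic replicate 1 and -0.064 without replicate 3 of that group. Its whole length is overlapped by Gm16156 on the opposite strand.

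Each immunoproteasome subunit takes the place of a constitutive one, Psmb9 that of Psmb6, Psmb8 that of Psmb5 and Psmb10 that of Psmb7. Psmb6 had 2850, 2904 and 2680 normalized counts in control mimic hearts and 2945, 3410 and 3134 in miR-19a/19b mimic hearts, all higher than the controls. Its log2 fold change was 0.17 (standard error 0.10), with an unadjusted p = 0.136. Psmb9 over Psmb6 was 0.278, 0.257 and 0.257 in control mimic hearts and 0.166, 0.181 and 0.197 in miR-19a/19b mimic hearts. The difference of the mean log2 ratios was -0.55, and the 2-sided exact permutation test gave p = 0.1, the smallest that 3 hearts against 3 allow, and 0.3 after adjustment over 3 ratios. The difference was -0.48 without miR-19a/19b mimic replicate 1 and -0.61 without replicate 3 of that group.

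Psmb5 (log2 fold change -0.0042, standard error 0.12) and Psmb7 (0.15, standard error 0.18) overlapped between the groups. Psmb5 is 98.9% identical to Gm3375 over 796 bases, and Psmb7 100% identical to Nek6 over 255. Reads there may not be assigned to a single gene. Psmb8 over Psmb5 was 0.798, 0.605 and 0.643 in control mimic hearts and 0.403, 0.602 and 0.628 in miR-19a/19b mimic hearts. The log2 difference was -0.34, with an exact permutation p = 0.2 (adjusted 0.3). It was -0.14 without miR-19a/19b mimic replicate 1 and -0.22 without control mimic replicate 1. Psmb10 over Psmb7 differed by -0.26, from 0.925, 1.5 and 0.766 to 0.733, 0.909 and 0.936, with an exact permutation p = 0.5 (adjusted 0.5). Both ratios overlapped between the groups. Without control mimic replicate 2, in which Psmb7 was low at 1236 normalized counts, the Psmb10 to Psmb7 difference was 0.022, and it was -0.15 without miR-19a/19b mimic replicate 1 and -0.46 without control mimic replicate 3.

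**Figure D2:**
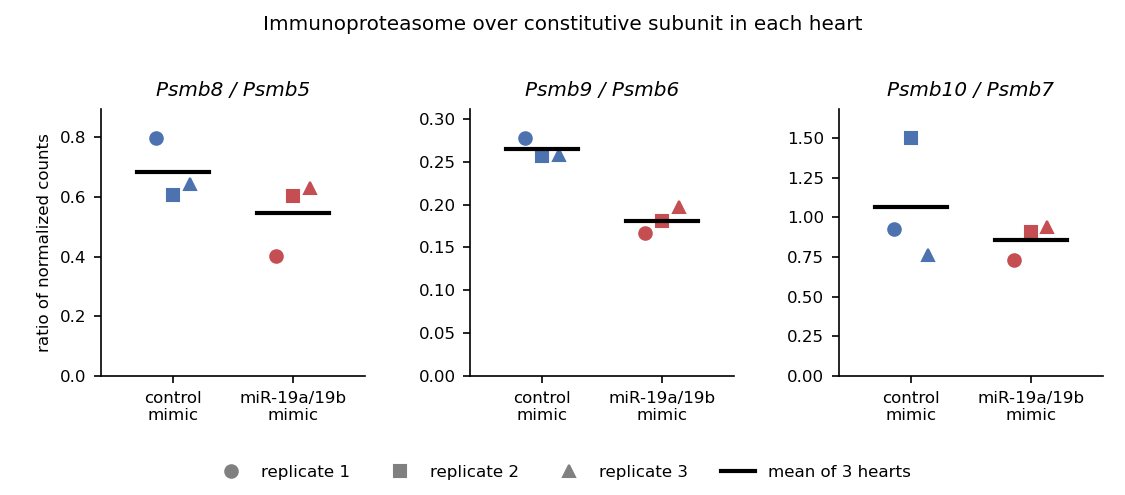
Ratio of normalized counts of each immunoproteasome subunit to the constitutive subunit it replaces (vertical axes from 0), for the 3 control mimic hearts (blue) and the 3 miR-19a/19b mimic hearts (red), with the mean as a black bar. The Psmb9 to Psmb6 ratio is separated, at 0.257 or more against 0.197 or less, and the other ratios overlap.

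Nlrc5 (ENSMUSG00000074151, chromosome 8, 94472763 to 94527272, plus strand), the transactivator, had the lowest fold change of the 10. Control mimic hearts had 668, 783 and 643 normalized counts, and miR-19a/19b mimic hearts 381, 531 and 609. The groups did not overlap, but the nearest hearts were only 33.3 apart. For Nlrc5 the log2 fold change was -0.48 (standard error 0.17), with an unadjusted p = 0.0218. It was -0.29 without miR-19a/19b mimic replicate 1 (unadjusted p = 0.0663) and -0.63 without miR-19a/19b mimic replicate 3 (unadjusted p = 0.00114).

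Per kilobase of the gene length that the table lists, B2m had the highest level, with a mean of 23833 normalized counts per kilobase in control mimic hearts. H2-D1 followed with 10014 and H2-K1 with 7801. Tapbp, with 1369, and Psmb10, with 1327, overlapped between their hearts. Below them came Tap1 with 317, Psmb8 with 254, Psmb9 with 203, Tap2 with 175 and Nlrc5 with 91.2 per kilobase, each separated from its neighbours in every control heart. In miR-19a/19b mimic hearts Psmb10 (1235) and Tapbp (1162) exchanged places, as did Tap2 (158) and Psmb9 (157), and the ranges of both pairs overlapped. Tap1 (231 per kilobase) also overlapped Psmb8 (203) there, and Psmb8 overlapped Tap2.

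The 10 genes varied together from heart to heart. All 10 had their lowest value of the 6 hearts in miR-19a/19b mimic replicate 1, and all 10 had their lowest control value in control mimic replicate 3. Relative to the control mean, the mean log2 level of the 10 was 0.06, 0.09 and -0.15 in control mimic replicates 1, 2 and 3, against -0.54, -0.23 and -0.23 for the same numbers of the miR-19a/19b mimic group. Correlations of log2 values among the 45 pairs ran from 0.55 (Psmb10 and Nlrc5) to 0.99 (Tap2 and Psmb8) over the 6 hearts. When each heart was taken relative to its group mean they ran from 0.31 (B2m and Tapbp) to 0.98 (Psmb8 and Psmb9), with a median of 0.77. The pairs share libraries and size factors, and miR-19a/19b mimic replicate 1 is the library that stood apart in skeletal muscle markers. The same counts and correlations were not taken over all genes tested, so they only describe the 10.

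Of the 11599 other genes with a mean of at least 100 normalized counts, the 5 most like the mean of the 10 over the 6 hearts were Bst2 (r = 0.997), Ifi35 (0.987), Cd274 (0.986), Pcid2 (0.986) and Plac8 (0.982). Bst2, tetherin, holds budding viruses at the cell surface, and Cd274 encodes the checkpoint ligand PD-L1. Bst2 had 4561, 5026 and 3691 normalized counts in control mimic hearts and 2196, 3269 and 3244 in miR-19a/19b mimic hearts. That is a log2 fold change of -0.62 (standard error 0.18). Cd274 differed by -0.74 on the log2 scale (standard error 0.24), from 380, 332 and 244 to 132, 226 and 221 normalized counts. For Plac8 it was -0.92 (standard error 0.18), for Ifi35 -0.40 and for Pcid2 -0.25. These genes were picked by a likeness over the same hearts, so their fold changes add no support.

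The other genes of the pathway were listed by function, 76 genes in 7 lists, of which 73 were tested. At an unadjusted p-value under 0.05, 15 of the 73 were lower and 0 higher, where 2.63% of all genes tested were lower and 1.39% higher. At an adjusted p-value 0 passed. Their median log2 fold change was -0.044.

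Among other heavy chains, which include the nonclassical class Ib genes, 7 of 15 tested were lower at the unadjusted threshold (2.63% of all genes). The list median was -0.43. H2-T23, which encodes Qa-1, the ligand of the NK receptor CD94/NKG2A, had 2611, 2947 and 2738 normalized counts in control mimic hearts and 1653, 2039 and 2186 in miR-19a/19b mimic hearts. Its log2 fold change was -0.51 (standard error 0.13) with an unadjusted p = 0.00307. H2-Q4 had -0.49 (standard error 0.12), from 1836, 1783 and 1460 to 1221, 1265 and 1116. H2-Q6 (-0.96, standard error 0.24) and H2-Q7 (-0.85, standard error 0.22), which encode Qa-2, had the largest differences of the list at this threshold. Neither overlapped between the groups, a separation seen downwards in 5.3% of all genes tested. H2-Q6 and H2-Q7 are 95.8% identical over 914 bases, so their reads cannot be fully assigned to either, and H2-Q4 and H2-T23 hold stretches of at least 150 bases that match 48 and 37 other genes. Leaving out miR-19a/19b mimic replicate 1 left 5 of the list lower at the threshold (2.47% of all genes). Without replicate 3 of that group 8 were lower (6.12% of all genes).

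The other lists of the loading and cutting machinery had medians nearer to 0 and no gene at the threshold. Of all genes tested, 2.63% were lower there, so 0 in lists this short does not set them apart from all genes. Loading chaperones and trimming peptidases, such as calreticulin, ERp57 and Erap1, gave 0 of 9 lower and a median of -0.025. Proteasome activators and assembly factors gave 0 of 9, with a median of 0.049. Of the 11 other subunits of the 20S core, which both forms of the proteasome contain, 0 were lower and their median was 0.090.

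**Figure D3:**
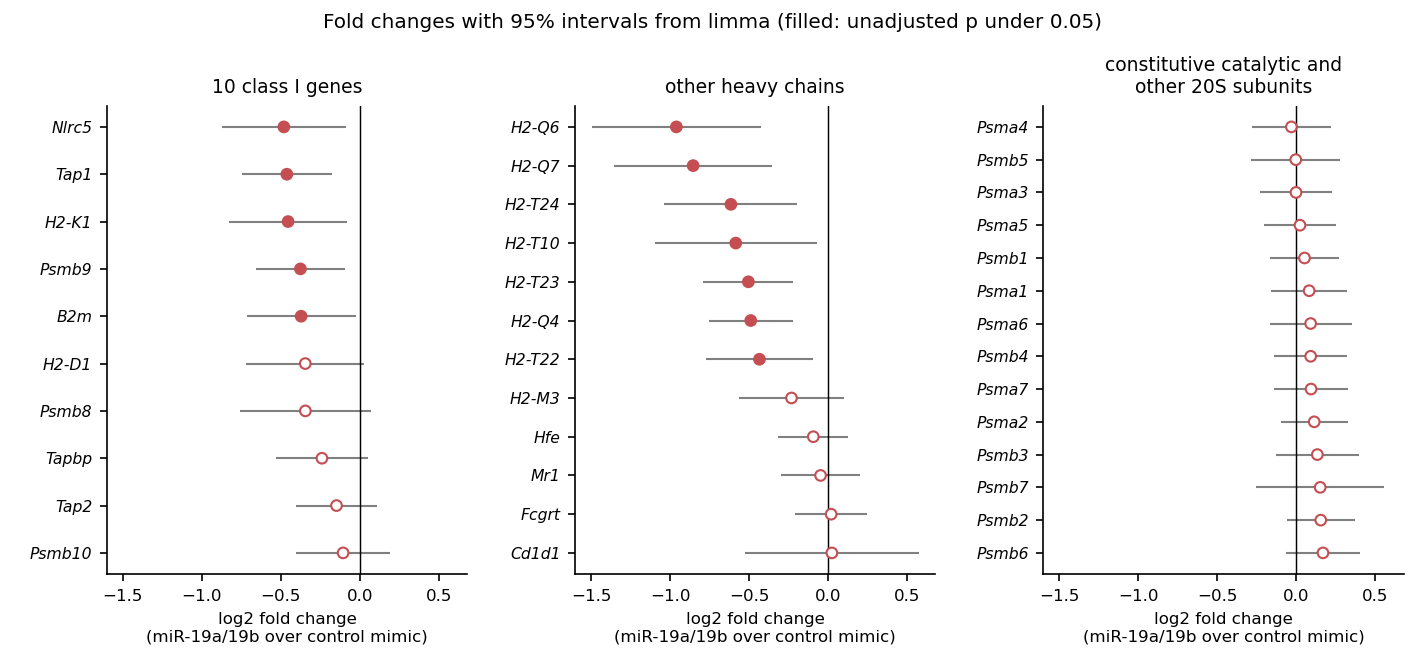
Log2 fold changes (horizontal axis, miR-19a/19b mimic over control mimic) with 95% intervals from limma for the 10 genes, for the 12 other heavy chains with a mean of at least 100 normalized counts, and for 14 subunits of the 20S core; filled points have an unadjusted p-value under 0.05. The 10 genes lie between -0.48 and -0.11, 7 heavy chains are filled and lie below 0, and no core subunit is filled. Of all genes tested, 2.63% were lower at that threshold.

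Of 15 transcription factors that act on class I promoters, 3 were lower at the unadjusted threshold (2.63% of all genes) and the list median was -0.077. Stat2 and Irf9, which act in type I interferon signalling, had log2 fold changes of -0.59 (standard error 0.14) and -0.33 (standard error 0.12). Stat2 had 1850, 2204 and 2028 normalized counts in control mimic hearts and 1102, 1438 and 1523 in miR-19a/19b mimic hearts. Ciita, the class II counterpart of Nlrc5, had -0.51 (standard error 0.17). None of the 3, which were named for their small p-values, overlapped between the groups. Such a separation was seen downwards in 5.3% of all genes tested. With each heart left out, between 1 and 5 of the list were lower at the threshold. The count was 1 without control mimic replicate 2 (1.76% of all genes) or without control mimic replicate 3 (2.07%). It was 2 without miR-19a/19b mimic replicate 1 (2.47%) and 5 without replicate 3 of that group (6.12%). The factors that hold Nlrc5 or Ciita on DNA (Rfx5, Rfxap, Rfxank, Nfya, Nfyb, Nfyc and Creb1) had log2 fold changes between -0.08 and 0.04 and Irf1 had -0.13, and all of these overlapped between the groups.

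Receptors for class I on lymphocytes and myeloid cells were the list with the lowest median, -0.72. At the unadjusted threshold 5 of 11 were lower (2.63% of all genes). Klrk1 (NKG2D) had 67.4, 68.3 and 44.8 normalized counts in control mimic hearts and 28, 35.1 and 35.4 in miR-19a/19b mimic hearts. That is a log2 fold change of -0.84 (standard error 0.24). Klrd1 (CD94, the partner of NKG2A) had -0.60 (standard error 0.22), the NK receptor Klra8 -1.10 (standard error 0.32) and Cd8a, the T cell coreceptor for class I, -0.82 (standard error 0.34). Few reads lie behind them, since Klra8 and Cd8a stayed under 41 normalized counts in every heart. The myeloid receptors Pirb (-0.38, standard error 0.17) and Lilrb4a (-0.10, standard error 0.22) had far more reads. Both overlapped between the groups and neither was lower at the threshold. At the threshold 2 of the 11 were lower without miR-19a/19b mimic replicate 1 (2.47% of all genes) or without control mimic replicate 2 (1.76%). The count was 3 without miR-19a/19b mimic replicate 2 (1.96%) and 5 without replicate 3 of that group (6.12%).

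Markers of the cells that could carry class I were summed in each heart. The 8 pan-leukocyte markers summed to between 26705 and 32507 in control mimic hearts and between 20892 and 33418 in miR-19a/19b mimic hearts, which overlapped. The 10 macrophage markers (87691 to 102669 against 71309 to 109446), the 8 neutrophil markers (1907 to 2571 against 1047 to 3436), the 6 B cell markers (171 to 193 against 143 to 263), the 8 endothelial markers (25372 to 31960 against 27709 to 29342) and the 8 fibroblast markers (227394 to 288542 against 192187 to 284423) overlapped as well. In miR-19a/19b mimic replicate 3 the pan-leukocyte and macrophage sums were above those of every control. The mean log2 level of the 10 class I genes relative to the control mean was -0.23 in that heart and -0.15 in the lowest control. Tap2, Tapbp and Psmb8 lay above their lowest control in that heart. The reason for this pattern was not tested.

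Sums of 11 T cell markers did not overlap, at 297 to 440 in control mimic hearts and 244 to 271 in miR-19a/19b mimic hearts. Of the 11, 3 were lower at an unadjusted p-value under 0.05, where 2.63% of all genes tested were lower. For 7 NK cell markers the sums were 159 to 337 and 89.3 to 145, with 4 lower, and for 7 dendritic cell markers 798 to 825 and 694 to 726, with 4 lower. No marker of the leukocyte, endothelial or fibroblast lists was at 0 in any heart except 2 neutrophil markers. The T cell list shares Cd8a with the receptors above. These sums moved with the class I genes between the groups, and their part in the difference was not tested.

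**Figure D4:**
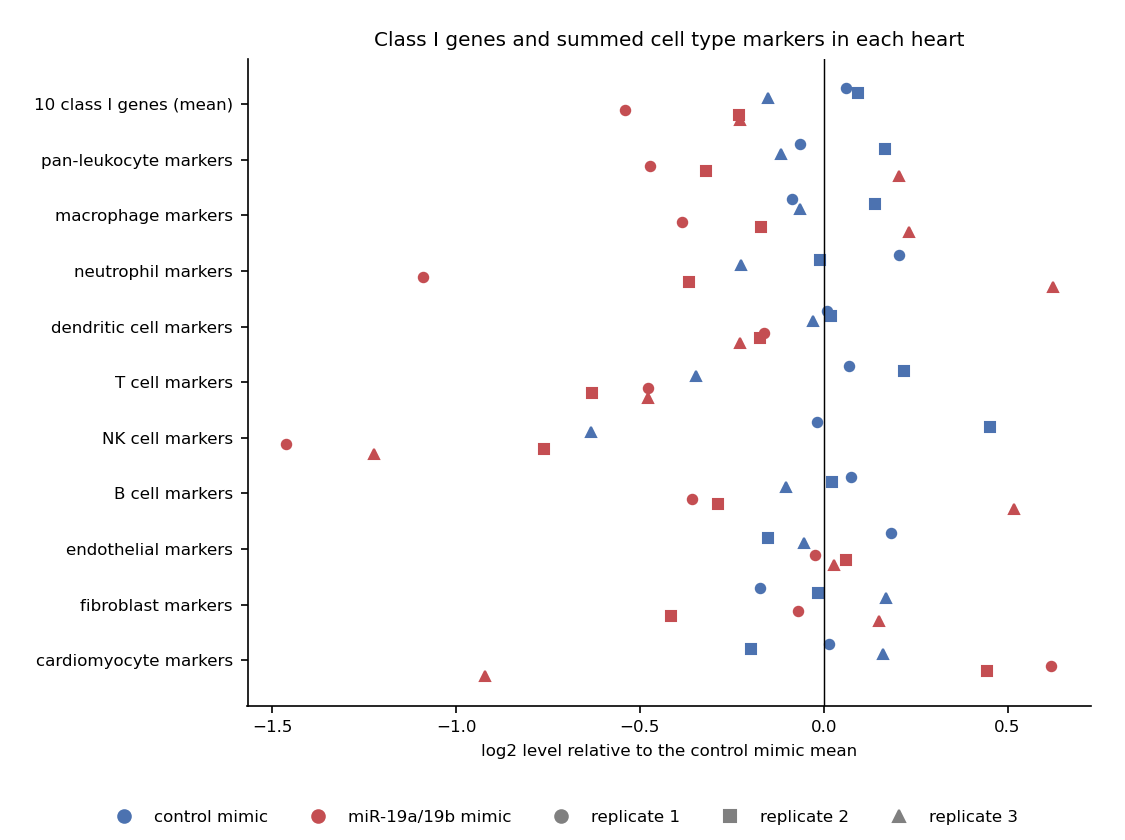
Log2 level relative to the control mimic mean (horizontal axis) of the mean of the 10 class I genes and of the summed markers of each cell type, for each of the 3 control mimic (blue) and 3 miR-19a/19b mimic hearts (red), with the replicate number as the symbol. The class I genes, dendritic, T and NK cell markers are separated between the groups. Pan-leukocyte, macrophage, neutrophil and B cell markers of miR-19a/19b mimic replicate 3 lie to the right of all controls. Those of replicates 1 and 2 of that group lie to the left of all controls.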

How the data were processed

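Polyadenylated RNA of 6 ventricles was prepared with a NEBNext Ultra kit and read as paired ends. The authors aligned reads with STAR (2.5.1b) and counted them per gene with HTSeq (0.6.0). The signal they deposited is the normalized count, reads of a gene over the library's size factor (0.905 to 1.16), and 100% of the values were whole multiples of 1 read within 0.01, so reads could be recovered. The submitters' notes name mm9 and DESeq2 (1.10.1) and the methods name edgeR, but GENCODE M21 (GRCm38) holds 25884 of the 26012 identifiers, and start and end were equal for 82.7% of those, so coordinates were taken as GRCm38. The annotated ends of H2-K1, Nlrc5, Psmb10, Psmb9 and Tapbp differ there. Columns of the authors' own fold changes and p-values were not used. Groups were taken from the labels.

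The test was limma (3.58.1, R 4.3.3) on log2(normalized count + 1), with its trended prior, for genes with a mean of at least 1, with Benjamini-Hochberg adjustment over all genes tested. A fold change on this scale understates that of a gene with few reads. Ratios were compared with exact permutation tests. The limma p-values weigh the difference between groups against the spread between these hearts, moderated by the trended prior. The permutation p-values rank the difference among all splits of the hearts into groups of the same sizes. The genes, lists and tests were chosen with earlier results of these data known. Genes named are the 10, Psmb5, Psmb6 and Psmb7, the 5 genes most like the 10, and Myh6. Of each pathway list, up to 4 genes with the smallest unadjusted p-value under 0.05 are named. Genes named as sharing reads, factors beside Nlrc5, examples of chaperones, Pirb, Lilrb4a, H2-M3 and Slc8a3 were chosen after their values were seen. An item of the transcription factor list is not reported here and does not enter the counts. H2-Q1 was not found, and H2-Bl and H2-T3 were below the filter. No library repeated another (chi-square of 9.49 to 123 for each degree of freedom between replicates). Same-numbered hearts did not deviate together (correlations 0.06, -0.34 and -0.45). DESeq2 (1.42.0), edgeR (4.0.16) and limma-voom on recovered reads, other filters and pseudocounts, the replicate block and each heart left out were alternatives. Transcripts were compared with BLAST (2.17.0).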

Additional observations from a re-analysis of the deposited data

How the results depend on the processing

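All 10 genes were below 0 in each of 17 alternatives, 170 values with 0 reversed, while the median of all genes stayed between -0.0013 and 0.015. The alternatives refit the same hearts, and the replicate block leaves the fold changes as they were, so these values are not separate tests. Tap1 had an unadjusted p-value under 0.05 in all 17, and the largest was 0.0243. DESeq2, the quasi-likelihood test with TMM or RLE factors and limma-voom called 6 of the 10 lower at that threshold, H2-D1 added to the 5, and a pseudocount of 10 called 4. The share of all genes lower there ran from 1.76% to 6.12% over the alternatives. With each heart left out, the number of the 10 lower at the unadjusted threshold ran from 1 to 8. It was 1 without miR-19a/19b mimic replicate 1, 2 without control mimic replicate 1 (Tap1 and Nlrc5), 2 without control mimic replicate 2 (Tap1 and Psmb9) and 8 without miR-19a/19b mimic replicate 3. At an adjusted p-value under 0.05 the number ran from 0 to 2, the 2 being Tap1 and Nlrc5 without miR-19a/19b mimic replicate 3, where 0.729% of all genes were lower at that threshold. DESeq2 called 0 of the 10 at an adjusted p-value, where 0.133% of all genes were lower. Pathway genes lower at the unadjusted threshold ran from 8 (without control mimic replicate 2) to 18 (without miR-19a/19b mimic replicate 3), and were 9 without miR-19a/19b mimic replicate 1. For the 10 genes the median ran from -0.44 to -0.28. With the replicate number as a block, 3 of the 10 were lower at the unadjusted threshold (Tap1, Psmb9 and Nlrc5), and H2-K1 and B2m were no longer so; the numbers do not pair the hearts. The Psmb10 to Psmb7 log2 ratio ran from -0.46 to 0.022 with a heart left out, reversed without control mimic replicate 2. For all of these values the cause was not tested. With 3 hearts a group, the difference of Psmb10 lay within the spread between hearts (means 1686 and 1568, SD 191 and 208). That of Tap1 exceeded it (means 1735 and 1265, SD 135 and 172), with an adjusted p = 0.947 from limma over 21126 genes. Whether depth limited the test was not examined.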
